A study of Mus musculus with 4 samples.

Results

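The genes described here are 10 genes of the NOD-like receptor and inflammasome system: the receptor genes Nlrc5, Nlrc4, Nlrp3, Nod1, Nod2 and Nlrx1, the adaptor gene Pycard, the protease gene Casp1, and the cytokine genes Il1b and Il18. They were taken by symbol from the gene names in the array files, among probes that are not controls. The 10 genes had 13 probes on 31 spots, of 20759 named genes and 41142 probes used in all. They were chosen with their values on these arrays known, so their levels and differences are given as a description, with no test and no p-value.

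Total RNA of whole mouse kidney was labelled with Cy3 and measured on 4 one-colour Agilent arrays, 1 for each group. The groups were NLRC5-/- mice after ischemia and reperfusion, WT mice after the same injury, NLRC5-/- mice after a sham operation, and WT mice after a sham operation. All mice were C57BL/6 and 8 weeks old by their labels. Injury was made by stopping the blood flow to both kidneys for 30 min and then restoring it. The reperfusion time is 48 h in the titles of the injured samples and in the series design and 24 h in all sample descriptions, and the conflict was not resolved. The deleted stretch of Nlrc5 and how the line was made are not given in the sources used here.

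Levels are log2 of the processed signal minus the 75th percentile of that array, so a level of 0 is the array's 75th percentile. That percentile was a signal of 362.2 in the NLRC5-/- injured kidney, 181.7 in the WT injured kidney, 465.4 in the NLRC5-/- sham kidney and 456.2 in the WT sham kidney, so the WT injured array was the dimmest of the 4. The share of probes well above background was 67.3% to 74.6%. Both arrays labelled knockout lay on 1 slide and both WT arrays on the other, so slide and genotype cannot be told apart in any comparison between the genotypes. The NLRC5-/- sham array also carried a female pattern: Xist was above background there alone, and Ddx3y, Eif2s3y, Kdm5d and Uty were above background on the other 3 arrays and not there. Comparisons with that array therefore also compare sexes, and the NLRC5-/- injured kidney is set against the WT sham kidney as well. All 9 proximal tubule markers were above background on all 4 arrays. Over 245 probes with several spots, spots of the same probe varied with an SD of 0.24 in log2, so a difference between 2 single spots has a technical SD of 0.34. With 1 array per group, differences between animals were not measured.

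NOD-like receptors are cytosolic proteins that sense microbial products and cell damage. NOD1 and NOD2 bind fragments of bacterial peptidoglycan and signal through the kinase RIPK2 to NF-kB. NLRP3 and NLRC4 assemble inflammasomes, in which the adaptor ASC (encoded by Pycard) recruits caspase-1 (Casp1), and caspase-1 cleaves the precursors of IL-1β and IL-18 and the pore-forming protein gasdermin D. NLRX1 resides at mitochondria, and NLRC5 is best known as a transactivator of MHC class I genes. In the kidney, tubular cells and infiltrating leukocytes both use this system after ischemia. On whole-kidney arrays, fewer cells of a type and less RNA per cell cannot be told apart.

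Each probe is a 60-base oligonucleotide, and the probes on which the readings below turn are printed 5′ to 3′ as the array files give them. The single Nlrc5 probe reads the targeted gene. It maps to chr8:97044928-97044987 (mm9, plus strand), at base 5009 of its transcript in the files.
Nlrc5 A_52_P382107: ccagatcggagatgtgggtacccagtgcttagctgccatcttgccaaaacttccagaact

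The 3 Nlrx1 probes gave different readings and lie at different places of the transcript, at bases 1150, 2367 and 2954 as the files give them. In mm9 they map to the minus strand at chr9:44071016-44071075, chr9:44064495-44064554 and chr9:44061455-44061514.
Nlrx1 A_51_P182708: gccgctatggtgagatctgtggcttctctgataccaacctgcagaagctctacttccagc
Nlrx1 A_52_P567469: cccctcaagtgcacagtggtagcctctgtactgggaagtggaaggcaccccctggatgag
Nlrx1 A_52_P66371: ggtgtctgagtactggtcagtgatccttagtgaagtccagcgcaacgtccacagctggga

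The 2 Pycard probes share 40 bases, shown in capitals, and so read nearly the same stretch of the transcript. They map to the minus strand of mm9 at chr7:135136241-135136300 and chr7:135136221-135136280.
Pycard A_51_P438821: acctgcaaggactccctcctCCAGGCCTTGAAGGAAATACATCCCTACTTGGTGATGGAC
Pycard A_51_P438820: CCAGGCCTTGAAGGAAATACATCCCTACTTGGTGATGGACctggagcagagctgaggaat

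Nlrc5 itself was well above background on all 4 arrays, including both that are labelled knockout. Its level was -3.62 on the injured array labelled knockout and -3.34 on the injured WT array, signals of 29.4 and 17.9. It was -3.77 on the sham array labelled knockout and -4.08 on the sham WT array, signals of 34.2 and 27.0. The array labelled knockout was thus higher by 0.31 in sham kidneys and differed by -0.28 in injured kidneys, both within the technical SD of 0.34. The injured difference turned with the background correction: it was -0.66 with normexp background correction (a model of signal plus noise) fitted without spots that carry an outlier flag, and 0.66 with the same correction fitted on all spots. Injury differed from sham by 0.15 in the kidneys labelled knockout and by 0.73 in WT kidneys. With either normexp fit the WT injury difference was 1.06, past 2-fold. In the kidneys labelled knockout it was 0.26 with the fit without outlier spots and 1.59 with the fit on all spots. A probe outside the deleted stretch checks nothing about a knockout, and whether the sequence printed above lies in it is not known here, so the genotypes below are those of the labels.

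Nlrc4, the receptor of the inflammasome that answers bacterial flagellin and secretion-system proteins through NAIP proteins, differed most between the genotypes among the 10 genes. Its probe (A_52_P655136, chr17:74826172-74826231, minus strand, mm9) had a signal of 8.22 in the injured kidney labelled knockout and 60.8 in the injured WT kidney. In sham kidneys the signal was 7.53 in the kidney labelled knockout and 72.3 in the WT kidney. Neither array labelled knockout was well above background and both WT arrays were. Set against the lowest signal well above background, Nlrc4 was at least 13.3-fold lower in the injured kidney labelled knockout than in the injured WT kidney (log2 -3.73), and at least 7.72-fold lower in sham kidneys (log2 -2.95). In WT kidneys it was 2.11-fold higher after injury than after sham, with levels of -1.58 and -2.66. This difference lay at the threshold: it was 0.97 in log2 with median scaling, 0.99 with quantile normalization and 0.98 with values from the authors' deposited table, against 1.08 here. No difference can be given for the kidneys labelled knockout, since neither value was measured.

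Detection in both WT arrays and in neither array labelled knockout was found for 16 of 20759 genes, or 0.0771%, and the opposite for 216 genes, or 1.04%. None of the others among the 16 had bounds as large as those of Nlrc4 in both sham and injured kidneys. The reading depends on the background: with normexp fitted without outlier spots, Nlrc4 stood at -1.66 in injured kidneys and at -0.92 in sham kidneys. Fitted on all spots, normexp gave -0.01 in injured kidneys and -0.95 in sham kidneys.

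**Figure D1:**
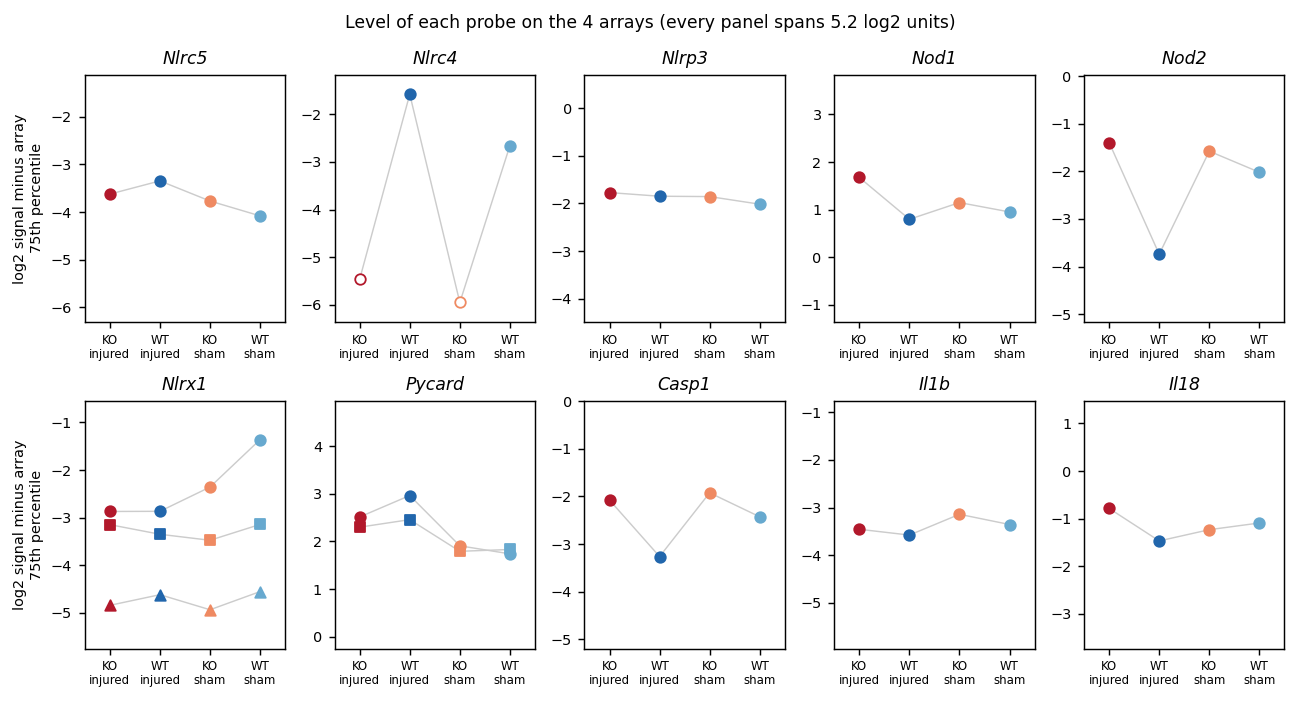
Level of each probe of the 10 genes on the 4 arrays, as log2 signal minus the array's 75th percentile. Every panel spans the same number of log2 units, and grey lines only join the points of a probe. Open circles mark arrays where the probe was not well above background. In the Nlrx1 panel circles, squares and triangles are the probes A_52_P66371, A_52_P567469 and A_51_P182708, and in the Pycard panel circles and squares are A_51_P438820 and A_51_P438821. Nlrc4 is open on both arrays labelled KO, and Nod2 is lowest in the WT injured kidney.

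Nod2, the sensor of muramyl dipeptide, was lower in the WT injured kidney than on the other 3 arrays. Its probe (A_51_P181691, chr8:91212170-91212224, plus strand, mm9) read -1.40 in the injured kidney labelled knockout and -3.74 in the injured WT kidney, signals of 137.6 and 13.6. It read -1.58 in the sham kidney labelled knockout and -2.02 in the sham WT kidney, signals of 155.9 and 112.5. Injured kidneys therefore differed by 2.34, or 5.08-fold, with the kidney labelled knockout higher than the WT kidney, and sham kidneys by 0.44. After injury Nod2 differed from sham by 0.18 in the kidneys labelled knockout and by -1.72 in WT kidneys, and the difference between these responses, 1.90, was not tested. Against the WT sham kidney, the injured kidney labelled knockout was at 0.62. Among all genes compared in injured kidneys, 214 of 16079 lay higher than Nod2. The WT injured signal of 13.6 is close to the lowest signal called above background on that array, 6.80. With normexp fitted without outlier spots the WT injury difference was -0.19 and the difference between injured kidneys 0.64, under 2-fold in both cases. Fitted on all spots, normexp gave -0.19 for WT injury and 1.11 between injured kidneys, the latter past 2-fold. The probes of Nod2 and Nlrc5 lie 5.83 Mb apart on chromosome 8.

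Nod1, the sensor of peptidoglycan with diaminopimelic acid, was highest in the injured kidney labelled knockout. Its probe (A_51_P234113, chr6:54874007-54874066, minus strand, mm9) read 1.68 in the injured kidney labelled knockout and 0.80 in the injured WT kidney. In sham kidneys it read 1.15 in the kidney labelled knockout and 0.95 in the WT kidney. The difference between injured kidneys was 0.88, or 1.84-fold, just outside the 2-fold threshold. The injury differences were 0.53 in the kidneys labelled knockout and -0.15 in WT kidneys. Under normexp without outlier spots the injured kidneys differed by 1.07, just inside 2-fold.

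Nlrp3, the inflammasome receptor that responds to potassium efflux and other signs of membrane damage, varied least of the receptors. Its probe (A_52_P650540, chr11:59378554-59378613, plus strand, mm9) read -1.77 in the injured kidney labelled knockout and -1.85 in the injured WT kidney. It read -1.85 in the sham kidney labelled knockout and -2.01 in the sham WT kidney. The 4 differences ran from 0.08 to 0.17, all within the technical SD. They stayed under 2-fold with normexp correction too, where the largest was 0.71, after injury in the kidneys labelled knockout, with the fit on all spots.

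The 3 probes of Nlrx1, the mitochondrial member of the family, disagreed. The brightest, A_52_P66371, read -2.87 in both injured kidneys, -2.36 in the sham kidney labelled knockout and -1.36 in the sham WT kidney. By this probe, Nlrx1 was 2.84-fold lower in the WT injured kidney than in the WT sham kidney (log2 -1.51), and the sham kidney labelled knockout was 1.99-fold lower than the sham WT kidney, just outside the threshold. The probe A_52_P567469 differed by -0.21 between the WT kidneys and by -0.33 between the sham kidneys. For the probe A_51_P182708 these differences were -0.07 and -0.38. Its signal in the WT injured kidney was 7.41, near the lowest signal called above background there, 6.80. A fall after WT injury could thus hardly register by that probe. The signal of A_52_P567469 was 17.8 in the WT injured kidney. All 3 probes were lower in the sham kidney labelled knockout than in the sham WT kidney, and the 2-fold difference after WT injury was seen by 1 of the 3. The mean over the probes gave -0.59 for WT injury, and normexp fitted without outlier spots gave -0.39 for the brightest probe.

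Pycard, which encodes the adaptor ASC, was higher in injured than in sham kidneys by both of its probes and in both genotypes. The brighter probe, A_51_P438820, read 2.51 in the injured kidney labelled knockout and 2.96 in the injured WT kidney. It read 1.91 in the sham kidney labelled knockout and 1.74 in the sham WT kidney. Injury differed from sham by 0.61 in the kidneys labelled knockout and by 1.22, or 2.34-fold, in WT kidneys. The overlapping probe A_51_P438821 read 2.30 in the injured kidney labelled knockout and 2.46 in the injured WT kidney, against 1.79 in the sham kidney labelled knockout and 1.83 in the sham WT kidney. By that probe injury differed from sham by 0.51 in the kidneys labelled knockout and by 0.63 in WT kidneys. The direction was shared, and only the brighter probe passed 2-fold. That difference was 0.87 under normexp without outlier spots.

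Casp1, the protease of the inflammasome, was lowest in the WT injured kidney. Its probe (A_51_P142861, spanning chr9:5306226-5306728, plus strand, mm9) read -2.08 in the injured kidney labelled knockout and -3.26 in the injured WT kidney, signals of 85.8 and 18.9. It read -1.93 in the sham kidney labelled knockout and -2.43 in the sham WT kidney. Injured kidneys differed by 1.19 between the labels, or 2.27-fold, and sham kidneys by 0.50. The injury differences were -0.15 in the kidneys labelled knockout and -0.83 in WT kidneys. Under the normexp fit that leaves out outlier spots, the injured kidneys differed by 0.01 and the WT injury difference was 0.21, and with the fit on all spots the injured kidneys differed by 0.77. Casp1 thus passed 2-fold only without normexp.

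The cytokine genes are measured by 10 spots each, and every other probe by 1. Il1b (A_51_P212782, chr2:129190347-129190406, minus strand, mm9) read -3.46 in the injured kidney labelled knockout and -3.58 in the injured WT kidney. It read -3.14 in the sham kidney labelled knockout and -3.36 in the sham WT kidney. The SD between its spots was 0.08 to 0.18 on an array. Injury differed from sham by -0.31 in the kidneys labelled knockout and by -0.22 in WT kidneys, both negative and both under 2-fold. With normexp fitted without outlier spots these differences were 0.03 and 0.60, so the direction of Il1b after injury turned with the background correction.

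Il18 (A_51_P153565, spanning chr9:50387470-50389598, plus strand, mm9) read -0.78 in the injured kidney labelled knockout and -1.47 in the injured WT kidney. It read -1.23 in the sham kidney labelled knockout and -1.09 in the sham WT kidney. Injury differed from sham by 0.45 in the kidneys labelled knockout and by -0.38 in WT kidneys, with standard errors between spots of 0.04 and 0.06. On the injured array labelled knockout and the sham WT array, 8 of the 10 spots were kept. Injured kidneys differed by 0.68 between the labels, with a standard error of 0.05, and sham kidneys by -0.14. These errors cover the spots of these arrays, not animals.

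**Figure D2:**
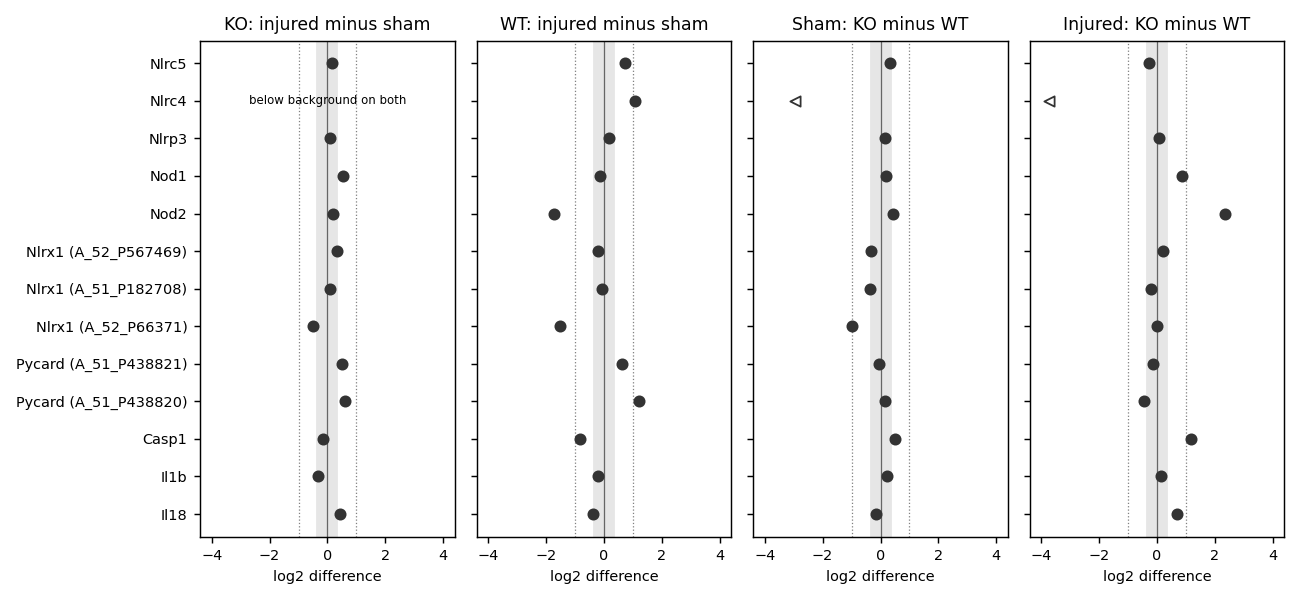
Log2 differences of the 13 probes in 4 comparisons. The grey band is 1 technical SD of a difference between 2 single spots (0.34) and dotted lines mark 2-fold. Left-pointing triangles are bounds, where the lower array was not above background. No probe passes 2-fold between injury and sham in the kidneys labelled KO, and the Nod2 point between injured kidneys lies furthest to the right.

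Counted by the brightest probe of each gene, after injury none of the 9 genes measured in the kidneys labelled knockout differed 2-fold from sham, where 7.72% of all genes compared did (4.48% higher and 3.24% lower). In WT kidneys 4 of 10 did, Pycard and Nlrc4 higher and Nod2 and Nlrx1 lower, where 27.9% of all genes compared did (14.7% higher and 13.2% lower). Between genotypes, 3 of 10 differed in injured kidneys, Nod2 and Casp1 higher and Nlrc4 lower in the kidney labelled knockout, beside 17.0% of all genes (8.96% higher and 8.02% lower). In sham kidneys 1 of 10 did, Nlrc4, beside 7.14% of all genes (3.85% higher and 3.28% lower). Against the WT sham kidney, the injured kidney labelled knockout differed in 2 of 10, Nlrc4 and Nlrx1, both lower, beside 17.3% of all genes (8.63% higher and 8.70% lower). The members' median difference was 0.15 for injury in the kidneys labelled knockout and -0.19 for injury in WT kidneys. It was 0.10 between injured kidneys and 0.18 between sham kidneys. The medians over all genes compared lay between -0.01 and 0.04 in these 4 comparisons. The 2 comparisons of injury with sham and the 2 between genotypes share arrays, so they are not independent of each other.

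Around these members, 66 further genes of the same pathways were on the array, in 6 groups. After injury 4 of 60 compared differed 2-fold in the kidneys labelled knockout, all higher, with a median of 0.19, beside 7.72% of all genes. In WT kidneys 20 of 61 did, 11 higher and 9 lower, with a median of 0.24, beside 27.9% of all genes. Between injured kidneys 16 of 61 differed, 10 higher and 6 lower in the kidney labelled knockout, with a median of -0.13, beside 17.0% of all genes. Between sham kidneys 1 of 59 did, with a median of 0.03, beside 7.14% of all genes. Of these, 1, 11, 9 and 0 also passed 2-fold with normexp fitted without outlier spots, none of them with the opposite sign.

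Among the other sensors, Nlrp6, a family member of intestinal and renal epithelium, stood out in the WT injured kidney. It read 3.74 in the injured kidney labelled knockout and 0.29 in the injured WT kidney, against 2.98 in the sham kidney labelled knockout and 3.09 in the sham WT kidney. Injury differed from sham by -2.80 in WT kidneys and by 0.76 in the kidneys labelled knockout, and the injured kidneys differed by 3.44, or 10.9-fold. A second Nlrp6 probe gave -3.56, 0.62 and 4.24 for the same comparisons, and normexp fitted without outlier spots gave -2.77 for WT injury and 3.44 between injured kidneys. By both probes Nlrp6 was low in the kidney where Nod2 was low.

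Ciita, the transactivator of MHC class II genes and the closest functional relative of Nlrc5, read 0.04 in the injured kidney labelled knockout and -2.75 in the injured WT kidney. In sham kidneys it read -1.33 in the kidney labelled knockout and -1.60 in the WT kidney. It was higher by 1.38 after injury in the kidneys labelled knockout and lower by 1.15 in WT kidneys, and the injured kidneys differed by 2.80. With normexp fitted without outlier spots these values were 1.13, -0.21 and 1.62. Ciita was the only gene of the 66 that kept a 2-fold difference after injury in the kidneys labelled knockout under that correction. Ifi204, an interferon-inducible DNA sensor, showed the same order in injured kidneys, at -0.02 in the kidney labelled knockout and -2.88 in the WT kidney. The difference was 2.86 (1.65 with that correction). Mefv and Nlrp1a ran the other way, higher after WT injury by 1.61 and 1.17 (1.28 and 1.05 with that correction). Between injured kidneys Mefv differed by -1.49 (-1.04 with that correction). Of 11 sensors compared, 3 were 2-fold higher and 4 lower after WT injury, beside 14.7% and 13.2% of all genes.

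The NAIP proteins bind the bacterial ligand and hand it to NLRC4. Naip2 was not above background in the WT injured kidney, and was at least 3.13-fold higher there in the kidney labelled knockout. Naip1 ran the other way, not above background in the injured kidney labelled knockout and at least 3.54-fold lower there than in the injured WT kidney. Naip5 differed by 0.30 between injured kidneys and by 0.58 between sham kidneys. These genes are close paralogs and a 60-base probe can read more than 1 of them, so their readings are uncertain. None of Naip1, Naip2, Naip5 and Naip6 differed 2-fold between sham kidneys, where Nlrc4 did. Naip6 came nearest, at -0.91, in the same direction as Nlrc4. After injury in the kidneys labelled knockout Naip6 was higher by 1.12, and by 0.48 with normexp fitted without outlier spots. With that correction Naip1 stood at -0.99 between injured kidneys, under 2-fold, and Naip2 had no value.

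Of 6 caspases and gasdermins, 3 were 2-fold higher and 1 lower in the injured kidney labelled knockout than in the injured WT kidney. Over all genes compared there, 8.96% were 2-fold higher and 8.02% lower. Casp4, the mouse gene for caspase-11, which senses lipopolysaccharide in the cytosol, read 0.96 in the injured kidney labelled knockout and -0.37 in the injured WT kidney, a difference of 1.32. Gsdmd, the gene of gasdermin D, read -1.13 and -2.32 in the same kidneys, a difference of 1.20. Casp12 differed by 1.60. Casp8, an initiator caspase of apoptosis, was lower by 1.23, with 0.72 in the kidney labelled knockout and 1.95 in the WT kidney. Under normexp without outlier spots Gsdmd stood at 0.44, Casp12 at 0.00 and Casp8 at -1.07, so of these genes Casp8 alone kept 2-fold. Casp4 had no value under that correction, which dropped its spot on the WT sham array and leaves out probes not kept on all 4 arrays.

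In the signaling chain below NOD1 and NOD2, 4 of 14 genes were higher 2-fold after injury in WT kidneys and none in the kidneys labelled knockout. These were Birc3, a ubiquitin ligase that acts on RIPK2 (1.23), Nfkbia, the NF-kB inhibitor that NF-kB itself induces (1.15), Ikbkb, a kinase of that inhibitor (1.02), and Cyld, a deubiquitinase that lay just inside 2-fold by its brightest probe. The 3 Cyld probes disagreed: the others, also above background on all 4 arrays, gave -1.04 and -0.10 for WT injury. Over all genes compared, 14.7% were 2-fold higher after injury in WT kidneys and 4.48% in the kidneys labelled knockout. Birc3 read 0.14 in the injured kidney labelled knockout and 0.99 in the injured WT kidney, against -0.19 in the sham kidney labelled knockout and -0.24 in the sham WT kidney. Tnfaip3, another inhibitor of NF-kB signaling, was lower by 1.20 in the injured kidney labelled knockout than in the injured WT kidney. Ripk2, the kinase that NOD1 and NOD2 share, was not well above background on any array. Birc3 and Tnfaip3 kept 2-fold under normexp fitted without outlier spots, and Nfkbia, Ikbkb and Cyld did not. A second Birc3 probe gave 1.45 for WT injury.

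Among genes that act on NLRP3, Panx1, the ATP-release channel pannexin-1, read -0.63 in the injured kidney labelled knockout and 0.90 in the injured WT kidney. It read -1.48 in the sham kidney labelled knockout and -2.05 in the sham WT kidney. Panx1 was higher by 2.95 after injury in WT kidneys and by 0.85 in the kidneys labelled knockout, and the injured kidney labelled knockout was lower by 1.53 than the injured WT kidney. Trim30a and Gbp5, interferon-inducible genes, were higher there by 2.25 and 1.45. A second Trim30a probe gave 1.97. Under normexp without outlier spots Trim30a stood at 1.41 and Gbp5 at 0.52, under 2-fold. Nek7, Sugt1 and Brcc3, which take part in assembling or licensing NLRP3, lay between -0.33 and 0.22 in all 4 comparisons by their brightest probes. Dimmer probes differed: a second Sugt1 probe gave -1.28 after injury in the kidneys labelled knockout, and between sham kidneys second probes of Brcc3 and Nek7 gave 0.82 and 0.67.

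Of the IL-1 family and its receptors, Il1rn, the secreted antagonist of the IL-1 receptor, was above background in both injured kidneys and in neither sham kidney. It was at least 3.61-fold higher after injury in the kidneys labelled knockout and at least 5.34-fold higher in WT kidneys. With normexp fitted without outlier spots these values were 0.73 and 1.26 in log2, so 2-fold held in WT kidneys alone. Il1r2, the decoy receptor, was above background in the WT injured kidney alone, at least 3.62-fold above the WT sham kidney. Il1rl1, the receptor of IL-33, was not above background in the sham kidney labelled knockout. It was at least 2.11-fold lower there than in the sham WT kidney, and at least 2.13-fold higher after injury in the kidneys labelled knockout. With normexp fitted without outlier spots these differences were -0.33 and 0.52 in log2, both under 2-fold. Il1a and Il18rap were not above background on any array, and neither was Aim2, the sensor of cytosolic DNA.

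NLRC5 acts with the RFX and NF-Y factors and with CREB1 and ATF1 at MHC class I promoters. Of these 8 partner genes none differed 2-fold between sham kidneys and 1, Nfyc, between injured kidneys, at 1.28. Over all genes compared, 7.14% did between sham kidneys and 17.0% between injured kidneys. In WT kidneys, by the brightest probe of each gene, Nfyc and Rfxank were lower after injury, by 1.45 and 1.32. Under normexp without outlier spots Nfyc stood at 0.44 between injured kidneys and at -0.42 after WT injury, both under 2-fold, and Rfxank at -1.06. Rfx5, which encodes another RFX subunit, differed by -0.04 between injured kidneys and by -0.41 between sham kidneys by its brightest probe. Its second probe gave 0.43 and 0.62, of the opposite sign. Dimmer probes of Rfxap and Nfya, above background on all 4 arrays, also differed from the brightest. For Rfxap the dimmer probe gave -1.96 after WT injury and -1.01 after injury in the kidneys labelled knockout, against 0.45 and 0.13. For Nfya it gave 1.71 after WT injury, against 0.55.

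**Figure D3:**
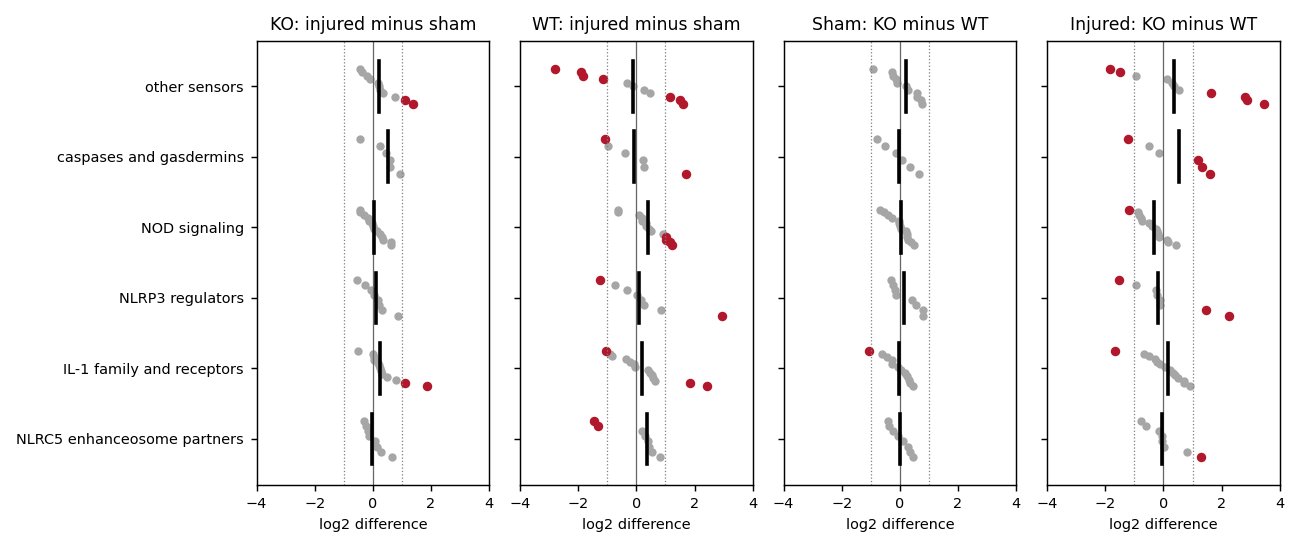
Log2 differences of the other pathway genes by group in 4 comparisons. Each point is a gene, red where it passes 2-fold (dotted lines), and black bars are the medians of the group. The WT injury and the injured comparison spread to both sides, and between sham kidneys 1 gene, Il1rl1, passes 2-fold.

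Markers of other cells moved in the same comparisons. Of 11 neutrophil markers on the array, 4 were above background in the injured kidney labelled knockout and 6 in the injured WT kidney, with summed scaled signals of 3.42 and 12.6. In sham kidneys 7 were above background in the kidney labelled knockout and 5 in the WT kidney, with sums of 7.08 and 4.85. After injury in WT kidneys 5 of 6 compared were 2-fold higher, beside 14.7% of all genes. In the kidneys labelled knockout 3 of 7 compared, Retnlg, S100a8 and S100a9, were 2-fold lower after injury, beside 3.24% of all genes. Between injured kidneys 5 of 6 were 2-fold lower in the kidney labelled knockout, with a median of -1.68, beside 8.02% of all genes. Elane, Ngp and Camp were not above background on any array. Of 13 macrophage and monocyte markers, 13 were above background on every array but the WT injured one, where 11 were. Their summed signals were 107.2 in the injured kidney labelled knockout, 161.2 in the WT injured kidney, 114.2 in the sham kidney labelled knockout and 88.8 in the WT sham kidney. Ly6c2 alone carried most of these sums, and without it they were 17.5 in the injured kidney labelled knockout, 9.14 in the WT injured kidney, 18.3 in the sham kidney labelled knockout and 14.1 in the WT sham kidney. After injury in WT kidneys 8 of 13 were 2-fold lower and 2 higher, beside 13.2% and 14.7% of all genes. By gene, 9 of 13 were 2-fold higher and 1 lower in the injured kidney labelled knockout than in the injured WT kidney. Their median difference was 1.48. Over all genes compared there, 8.96% were 2-fold higher and 8.02% lower. Adgre1 and C1qa, genes of resident macrophages, were among the furthest apart, at -1.01 and -0.79 in the injured kidney labelled knockout. They read -4.14 and -4.07 in the injured WT kidney, near the lowest level well above background on that array, -4.74. C1qb differed less, at -0.18 in the injured kidney labelled knockout and -0.67 in the injured WT kidney. Lyz2 read 3.06 and 2.58 in the same kidneys. Cd68 was lower in the kidney labelled knockout, at -1.99, than in the WT kidney, at -0.75.

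The proximal tubule list was lower 2-fold in 7 of 9 genes after injury in WT kidneys, with a median of -1.44. The endothelial list was lower there in 5 of 6, with a median of -1.54, beside 13.2% of all genes compared. Between injured kidneys these lists were higher 2-fold in the kidney labelled knockout in 5 of 9 and 5 of 6 genes. The podocyte list was higher there in 4 of 5 genes and the loop of Henle and distal tubule list in 3 of 5. The collecting duct list ran the other way, 2-fold lower in 2 of 8 genes and higher in none, with a median of -0.51. Over all genes compared between injured kidneys, 8.96% were 2-fold higher and 8.02% lower. After injury in the kidneys labelled knockout the medians were 0.25 for macrophage and monocyte markers and 0.14 for proximal tubule. They were -0.41 for endothelium, -0.42 for neutrophil markers, 0.12 for T and NK cells and 0.05 for B cells. The collecting duct median was -1.03, with 4 of 8 genes 2-fold lower, beside 3.24% of all genes compared. Further medians were -0.65 for loop of Henle and distal tubule, -0.62 for podocytes, -0.79 for urothelium, -1.38 for fat and -5.90 for red cells. The part of these cells in the readings of the receptor and inflammasome genes was not tested. Fat and red cell lists differed between the sham kidneys: summed signals were 0.23 for fat in the kidney labelled knockout and 25.9 in the WT kidney, and 55.9 and 6.54 for red cells. The fat sum was 0.09 in the injured kidney labelled knockout and 0.19 in the injured WT kidney, so the WT sham array stood apart from the other 3. After injury in WT kidneys 4 of 4 fat markers and 5 of 5 urothelial markers were 2-fold lower, with medians of -5.85 and -3.42, in the comparison that gave the Nlrx1 difference. Their part in it was not tested.

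**Figure D4:**
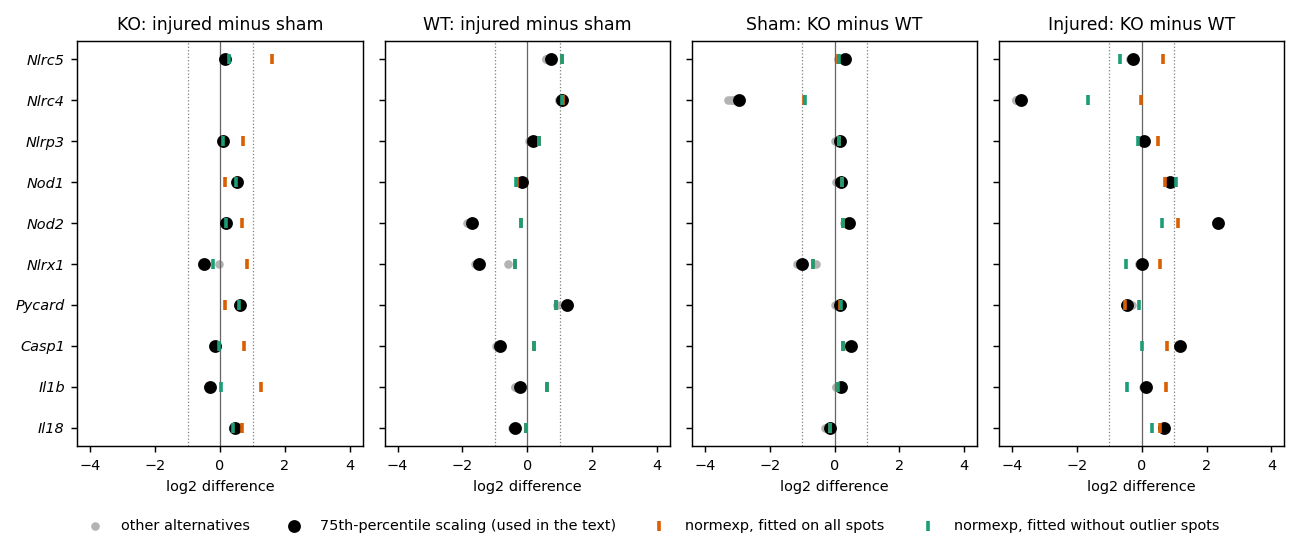
Log2 differences of the 10 genes, by their brightest probe, under the scaling used in the text (black), normexp background correction with 2 fits (orange and green) and the other alternatives (grey, among them the mean over a gene's probes). Dotted lines mark 2-fold. Grey points lie near the black ones except for the mean over the 3 Nlrx1 probes, while the normexp marks of Nlrc4, Nod2 and Casp1 lie nearer to 0 in injured kidneys.

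The genes nearest to each member over the 4 arrays were sought among 14804 genes above background on all of them, by the Euclidean distance between levels centred on each gene's mean. With only 4 points per gene, close neighbours are common, and the distance is a description of these arrays. Nod2 lay nearest to Gamt (0.07), Clic3 (0.09) and Mia (0.15). Casp1 lay nearest to Gpr162 (0.10), Agmat and Lhx1 (0.11 each). Nlrc5 lay nearest to Ccdc93 and Smarca5-ps (0.02 each) and Anxa6 (0.03), and Pycard to Mybl2 (0.03), Hoxa9 (0.04) and Ldb3 (0.06). Nlrx1, by its brightest probe, lay nearest to Slc31a1 (0.04), Tmlhe (0.06) and Mbd3 (0.10), and Nod1 to Calcoco1 (0.06), Fyb (0.07) and Ift88 (0.08). Nlrp3 lay nearest to Zfp938 (0.01), Rnf166 and Kptn (0.02 each). Il1b lay nearest to Msx1, Nfat5 and Cipc (0.05 each), and Il18 to Gpat2 (0.02), Man2a2 (0.05) and Clnk (0.06). Among the members themselves the closest pairs were Nod1 and Il18, at 0.31, Nlrp3 and Il1b, at 0.40, and Nlrc5 and Nlrp3, at 0.42.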

How the data were processed

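The scanner files the authors deposited give intensity per spot for 4 arrays, made with Agilent Feature Extraction. The file headers name version 10.7.3.1 and the submitters' processing notes version 9.1. Per the file headers, the processed intensity had its background subtracted and was detrended within each array. The authors also deposited a table of log2 values, which served as an alternative. The sources used here do not give how they normalized it. Its values followed the scanner intensities of the same array closely, and its column medians were 5.91 to 5.93.

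Controls and spots marked by either of 2 outlier flags for the feature were removed, spots of a probe were averaged in log2, and each array's 75th percentile was subtracted. Probes were named by the members' symbols in the files and otherwise through the RefSeq gene table of GRCm38.p6 (accession, symbol or synonym); 6675 probes stayed unnamed. The brightest probe represented a gene. A value not well above background was set to the higher of itself and the lowest level well above background on that array. Genes above background on either array were compared and counted at 2-fold. Left out were genes whose bounded difference ran against the array on which they were detected. Alternatives were normexp (limma 3.58.1, R 4.3.3, offset 50; fitted on all spots, or without spots that carry any outlier flag), median and quantile scaling, the authors' table, the mean over probes, detection on both arrays, the own signal in place of the bound, a 4-fold threshold and kept outlier spots. The counting was tested on simulated data.

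Each group had 1 array, so no p-value is given and precision is limited by the number of arrays. The members and gene lists were chosen with earlier results of these data known. The text names all members, up to 3 genes each way per pathway group and comparison among those past 2-fold, the nearest genes and marker genes. Further pathway genes (among them Cyld, Nek7, Naip5, Ripk2 and Rfx5) were chosen after their values were seen.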

Additional observations from a re-analysis of the deposited data

Results flagged for a closer look

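Nod2 had injury differences of opposite sign in the 2 genotypes, the smaller of them within the technical SD. It stood at 0.18 in the kidneys labelled knockout (injured minus sham) and at -1.72 in WT kidneys, so the responses differed by 1.90 on the log2 scale. Each response is 1 array against 1 array, and the difference was not tested. With normexp background correction fitted without outlier spots, the responses were 0.19 and -0.19.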

How the results depend on the processing

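No paired analysis was possible because each group has 1 array. In the 4 comparisons no 2-fold difference of a member changed its sign in any alternative. Nlrx1 did in the injured kidney labelled knockout against the WT sham kidney, at 0.17 with normexp on all spots. Of 39 differences of members, none moved beyond the technical SD under median scaling, quantile normalization, the authors' deposited table, the own signal in place of the bound or kept outlier spots. The mean over probes moved 3, normexp fitted on all spots 22, and normexp fitted without outlier spots 14. With the fit on all spots, a spot of the injured array labelled knockout had a signal minus background of -11069, and the 5th percentile of corrected values was 300.8 there, against 56.3 to 57.4 on the other arrays; without outlier spots it was 56.5.

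Members 2-fold apart after injury in the kidneys labelled knockout were 0. They were 2 with normexp on all spots, Nlrc5 (1.59) and Il1b (1.27), and 2 with WT sham as the sham, Nlrc4 and Nlrx1. In WT kidneys they were 4, and 0 at 4-fold. They were 2 with either normexp fit, Nlrc4 (1.08 with both) and Nlrc5 (1.06 with both), where Pycard, Nod2 and Nlrx1 dropped out. With the mean over probes they were 2, Nlrc4 and Nod2. They were 3 with median scaling, quantile normalization or the authors' table, where Nlrc4 dropped out. Between sham kidneys they were 1. They were 0 with either normexp fit or detection on both arrays, and 2 with median scaling, quantile normalization or the authors' table, where Nlrx1 (-1.15, -1.07 and -1.08) passed as well. Between injured kidneys they were 3, and 1 with normexp on all spots, Nod2 (1.11). With normexp without outlier spots Nlrc4 (-1.66) and Nod1 (1.07) passed 2-fold there, and Nod2 (0.64) and Casp1 (0.01) did not. With detection on both arrays Nlrc4 had no value there, and at 4-fold Casp1 dropped out.

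Pathway genes 2-fold apart after injury in the kidneys labelled knockout were 4. They were 16 with normexp on all spots, 1 with normexp without outlier spots, 2 with detection on both arrays, 0 at 4-fold and 7 with WT sham as the sham. In WT kidneys they were 20, and 11 with either normexp fit and 3 at 4-fold. Between sham kidneys they were 1. They were 0 with either normexp fit, detection on both arrays or 4-fold, and 2 with median scaling, quantile normalization or the authors' table. Between injured kidneys they were 16, and 7 with normexp on all spots, 9 without outlier spots and 4 at 4-fold. Median scaling shifted the median of all genes by -0.15 between sham kidneys and -0.10 after WT injury. Normexp without outlier spots shifted it by 0.17 after WT injury and -0.17 between injured kidneys. The share of higher calls over all genes between sham kidneys was 54.0%, and 34.3% with median scaling, 43.6% with quantile normalization and 43.0% with the authors' table. After injury in the kidneys labelled knockout it was 58.0%, and 88.8% with normexp on all spots. Signals near the background limit the readings of Nlrc4, Nlrc5, Il1b, the dimmer Nlrx1 probes, and Nod2 in the WT injured kidney.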
